A study of Chlamydomonas reinhardtii with 15 samples.

Results

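In the green alga Chlamydomonas reinhardtii, 65 of 11183 transcript models with a detected probe were at least doubled at 24 and 48 h without sulfur and no longer clearly above their starting level, or below it, at 72 and 96 h in the wild type cc3491. These early transient transcripts were chosen by their measured ratios. The ratio is log2 of the processed red over the processed green signal minus the array median, averaged over the detected probes of a model, which are those with a red or green signal well above background on each of the 4 cc3491 arrays. A model was taken when its ratio was 1 or more at 24 and 48 h and 0.5 or less at 72 and 96 h, and models with the symbols ARS, SLT, ECP, LHC, PSA, PSB, LCI, CAH, CCP, PTB and HYD, which stand for sulfur, light-harvesting, photosystem, carbon-concentrating, phosphate and hydrogenase genes, were left out. The limits were met by 66 models, 0.59% of all, and 1 of these, the hydrogenase maturation model 128256, was left out by its symbol. Symbols were at hand for 468 of the 11183 models and 1 of the 65, so genes of these kinds without a symbol may remain among the 65. The set depended on the processing, since after another background correction (normexp) and intensity-dependent dye normalization (loess) 15 models met the limits, 14 of them among the 65. The values in cc3491 are a description, and tests were made only on the strains 4aplus and npq4, which the choice did not use.

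The study used 15 Agilent arrays with 2 colours, each setting RNA of sulfur-starved cells, labelled red with Cy5, against RNA of the same strain at 0 h, labelled green with Cy3. Cells had been grown in TAP medium, an acetate medium, to early stationary phase, washed, and kept without sulfur in constant light. cc3491 and cc125 are wild types, 4aplus is the wild type used as control of npq4, and npq4 is an insertional knockout of the stress-related light-harvesting genes LHCSR3.1 and LHCSR3.2. There was 1 array for each of 24, 48, 72 and 96 h in cc3491, cc125 and 4aplus, and 1 for each of 24, 48 and 96 h in npq4, with 3 biological samples pooled before labelling. Time points therefore take the place of replicates, each strain had 1 slide and 1 RNA at 0 h, and strain, slide and 0 h RNA cannot be told apart. In npq4 none of the 3 probes of LHCSR3 was above background in red on any of its 3 arrays. In 4aplus probe 1 was above background in red on all 4 arrays, probe 2 on 3 and probe 3 on 0.

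Sulfur is needed for cysteine, methionine, thiols and sulfolipids. When it runs out, algae of this kind induce sulfate uptake and enzymes that free sulfate from organic esters, break down internal sulfur stores, and later reduce photosynthesis and growth. A transcript that rises first and falls again while the medium still lacks sulfur differs from the lasting induction of sulfate uptake genes.

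In cc3491 the ratios of the 65 models ran from 1.01 to 3.35 at 24 h, with a median of 1.26, and from 1.00 to 2.69 at 48 h, with a median of 1.27. At 72 h they ran from -2.01 to 0.50 with a median of -0.04, and at 96 h from -1.48 to 0.46 with a median of -0.41. The median of all 11183 models was -0.06, 0.06, -0.21 and -0.28 on these arrays. The limits set no floor, and 32 of the 65 models lay between -0.5 and 0.5 on both late arrays while 33 were below -0.5 on 1 or both. Of the 892 models at 1 or more at 24 and 48 h, 544 stayed there on all 4 arrays and 66 met the late limit. The opposite course, -1 or less early and -0.5 or more late, was met by 102 models.

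**Figure D1:**
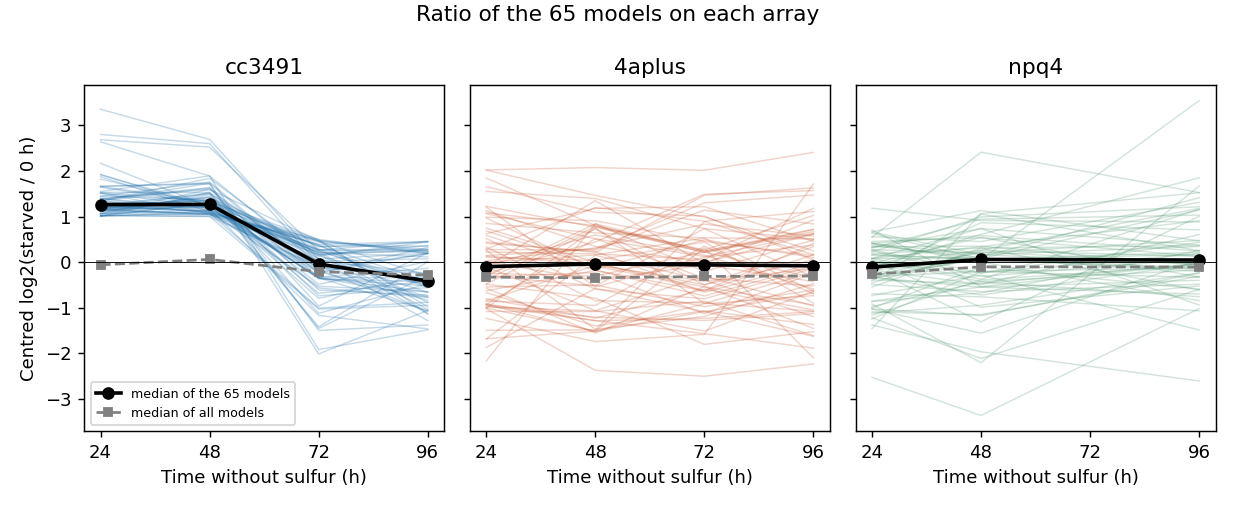
Centred log2 ratio of starved over 0 h RNA (y axis) against hours without sulfur (x axis) in cc3491, 4aplus and npq4; each thin line is 1 of the 65 models, the black line their median and the dashed grey line the median of all models. The black line falls from 1.26 to -0.41 in cc3491, where it was chosen to fall, and stays between -0.11 and 0.06 on the arrays of 4aplus and npq4.

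The red and the green channel could be read apart, because all 4 cc3491 arrays carried RNA of the 0 h cells in green. From late to early arrays the red level was higher in all 65 models, by 0.29 to 3.31 log2 units with a median of 1.48. The median over all models was -0.13. Since the choice asked for a higher ratio early on these arrays, a higher early red in the members follows largely from it. The green level differed by -1.03 to 0.40 with a median of -0.26, close to the median of -0.26 over all models. The change in red was larger in size than that in green for 61 of the 65 models. The starved RNA was above background on both early arrays for all 65 models and on both late arrays for 55. For models 96016 and 169259 red was above background on neither late array, so their late ratios in cc3491 are upper limits.

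**Figure D2:**
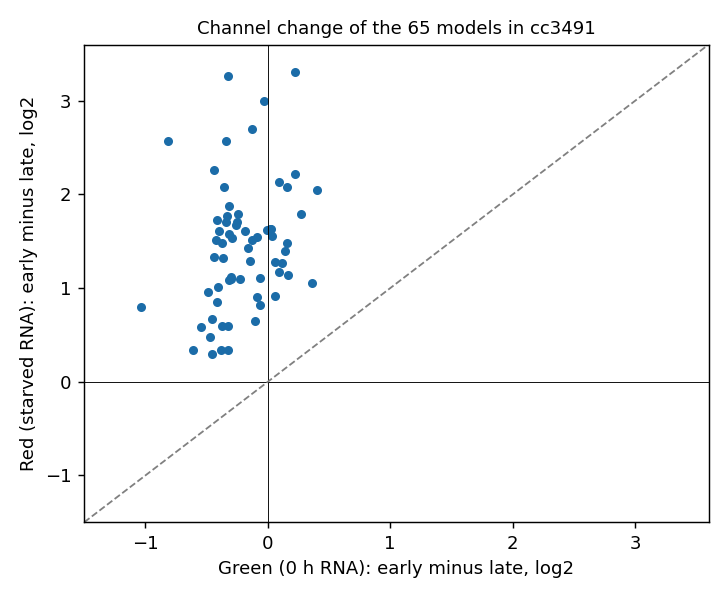
Mean log2 level at 24 and 48 h minus that at 72 and 96 h in cc3491 for each of the 65 models, with green (0 h RNA) on the x axis and red (starved RNA) on the y axis; the dashed line marks equal change. Points lie between -1.03 and 0.40 in green and between 0.29 and 3.31 in red.

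The models with the highest early ratios each rested on 1 detected probe. Model 98369 stood at 3.35, 2.69, 0.07 and -1.28 at 24, 48, 72 and 96 h in cc3491. Model 190424 stood at 2.80, 2.60, -0.04 and -0.45, and model 168638 at 2.68, 2.52, 0.26 and -0.52. Model 79435 followed with 2.64, 1.89, -0.04 and -0.39. No source used here names a function for these 4 models. Probes 2 and 3 of model 98369 share 59 of their 60 bases and were not detected on all cc3491 arrays, with ratios of 0.05 and 0.02 at 24 h, so the high value was carried by probe 1.

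Each model had up to 3 probes, and the choice used the mean of those detected, so their spread within cc3491 is a description. Of the 65 models 40 had 1 detected probe, 16 had 2 and 9 had 3, which makes 99 detected probes. A single detected probe was the case for 61.5% of the members and 30.1% of all models. Among the 25 models with more than 1 detected probe, every detected probe met the limits in 8, and 32 of their 59 probes did so. The 96 remaining probes of the members were not detected on all cc3491 arrays, and 45.8% of them were higher early than late, against 42.9% of all probes not so detected. For 25 of these, detected on 2 or 3 of the arrays, the share was 68%, against 59.1% of all such probes. The 99 spots lay across the whole array, from row 3 to row 507 of 532, and none was saturated or marked as an outlier on the cc3491 arrays.

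Several models with more than 1 detected probe showed the course in each of them. Shared bases between the probes were not looked up for the models named here, so these probes may not be separate sequences. Model 145873 stood at 1.34, 1.84, 0.07 and 0.20 in cc3491, and its 3 probes at 24 h read 1.34, 1.32 and 1.39. Model 177450 also met the limits in 3 of 3 probes, at 1.26, 1.35, 0.14 and -0.51. Model 181451 fell the furthest among these, from 1.55 and 1.89 to -1.92 and -1.48, with 2 of 2 probes. Models 97416 and 196878 met the limits in 2 of 2 probes, with means of 1.53, 1.53, -0.34 and -0.77 for the first and 1.39, 1.64, -0.61 and -0.72 for the second.

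In other models the mean hid probes that differed. Model 188159 had a mean of 1.51, 1.23, 0.27 and 0.46, while its probe 1 read 4.11, 3.70, 3.00 and 2.27 and its probe 2 read -0.04, -0.04, -1.14 and -0.50. None of its 3 probes met the limits. For models 148006 and 195333 1 of 2 probes met them, with means of 1.51, 1.07, -1.004 and -0.88 for the first and 1.40, 1.18, 0.25 and -0.56 for the second.

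Models 172560 and 102205 gave nearly equal values in cc3491 for probes 1 and 2. Probe 1 of model 102205 read 2.44, 2.09, 1.52 and -0.14 in cc3491, and probe 1 of model 172560 read 2.52, 2.13, 1.68 and 0.05. Probe 2 read 1.32, 0.82, 0.13 and -2.38 in the first and 1.27, 0.77, 0.12 and -2.38 in the second. Probe 3 differed in npq4, where it read 1.21, 0.79 and 2.51 for model 102205 and -0.04, 0.40 and 0.80 for model 172560. The specificity table of the study marks all 3 probes of model 102205 as matching several transcripts, and signal shared between the 2 models cannot be told apart. Their means were 1.66, 1.32, 0.50 and -1.13 for model 102205 and 1.64, 1.28, 0.46 and -0.98 for model 172560. In gene order on RefSeq assembly v5.5, which the array does not use, another member, model 172564, lies between them, with 5 genes to model 172560 and 4 to model 102205. The only other pair of members within 10 gene steps was 137062 and 190424. The probes of model 109358 are also marked as matching several transcripts. Those of models 105419, 106870 and 111796 are marked as matching a single transcript. No marks were at hand for the other members, model 172560 among them.

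**Figure D3:**
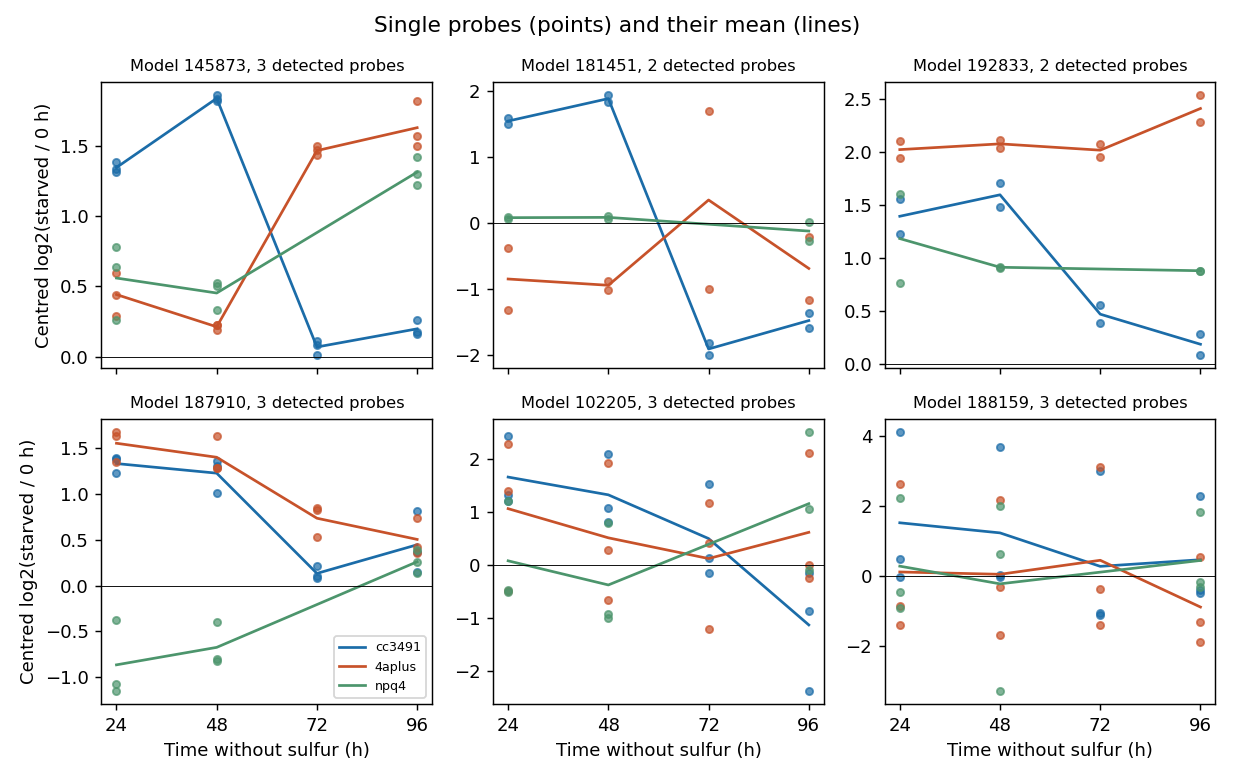
Centred log2 ratio (y axis) against hours without sulfur (x axis) for 6 models with more than 1 detected probe; points are single probes, lines their mean, and colours the strains cc3491, 4aplus and npq4. The 3 probes of model 145873 lie close together at 1.32 to 1.39 at 24 h in cc3491, whereas those of model 188159 spread from -0.04 to 4.11.

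Around the limits the ratios were continuous. The lower of the early ratios was 1.002 in model 111796, 1.003 in model 168216 and 1.005 in model 149000, and 0.995 in model 171078, 0.994 in model 180559 and 0.987 in model 107835, which were just outside. The higher of the late ratios was 0.499 in model 102205, 0.498 in model 189866 and 0.473 in model 192833, and 0.508 in model 185865, 0.510 in model 173584 and 0.51 in model 196362, which were just outside.

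Names were scarce. RefSeq held a locus for 57 of the 65 models, and the study's tables named 1 of the 65 and 468 of all models with a value. That model, 169259, carries the symbol UAPA3, a uric acid-xanthine permease that takes purines into the cell. Of 17 gene lists formed by symbol or product, 1 held a member, the transporters with UAPA3 among 24 of the 11183 models. Since the lists were filled by name, the empty lists say nothing about the unnamed members. The specificity table also places model 106870 among the cysteine proteases, enzymes that break down protein.

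UAPA3 stood at 1.88, 1.11, -0.53 and -0.65 in cc3491, from probe 3 alone. Its probes 1 and 2, which share 58 of 60 bases, were above background on no cc3491 array and read 0.06 and 0.00 at 24 h. The study's tables give the same symbol to model 165762, which stood at 0.43, 0.02, -1.04 and -0.77. UAPA1, a permease of the same family, stood at -0.20, -0.96, -1.59 and -1.58, so the early rise was seen in 1 of these 3 permease models. The cysteine protease model 106870 stood at 1.07, 1.60, -0.14 and 0.18, also from 1 probe.

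Whether the same transcripts were transient in the control strain 4aplus and in npq4 was asked next. In 4aplus the limits of the choice were met by 0 of the 65 models, against 21 of all 11183 (0.188%). In npq4, with 96 h as the late array, they were met by 0 of 65, against 90 of all (0.805%). At these shares of all models fewer than 1 of 65 would meet the limits, so the counts are not a result about the members. The member medians in 4aplus were -0.10, -0.04, -0.06 and -0.08 at the 4 times and in npq4 -0.11, 0.06 and 0.05, compared with medians of all models from -0.34 to -0.30 in 4aplus and from -0.27 to -0.10 in npq4. On the 4aplus arrays 30 or 31 of the 65 models were above 0, and on those of npq4 between 30 and 35.

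**Figure D4:**
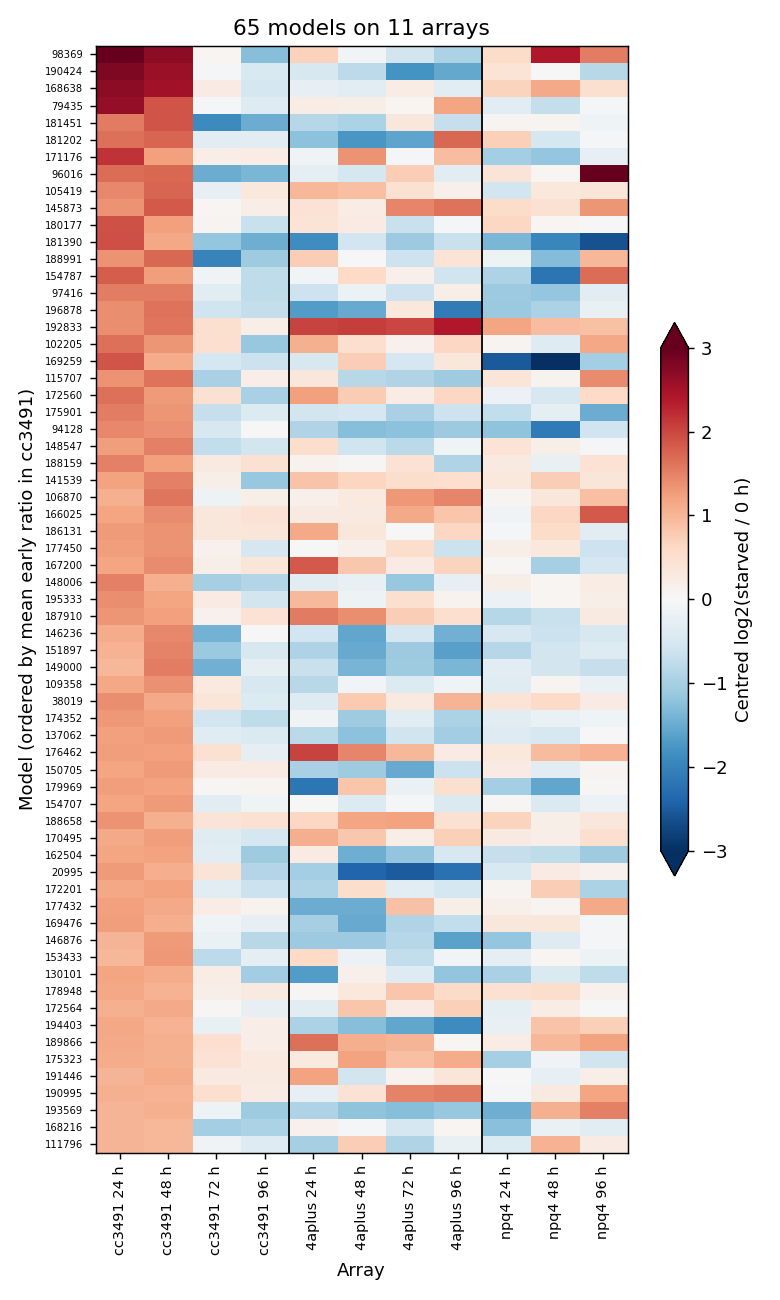
Centred log2 ratio of each of the 65 models (rows, in the order of their mean early ratio in cc3491) on the arrays of cc3491, 4aplus and npq4 (columns); red is higher in starved RNA and blue lower, and values beyond 3 or -3 take the end colour. The first 4 columns show the choice, whereas no row repeats it in 4aplus or npq4.

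The signal set a limit on this comparison. Between 8728 and 12424 probes were above background in red on the 4aplus arrays, against 20956 to 26296 on those of cc3491 and 14355 to 19471 on those of npq4. A detected probe was above background in either channel on every array for 53 of the 65 models in 4aplus and 39 in npq4. Red was above background on no array for 21 models in 4aplus and 14 in npq4, among them model 98369 in 4aplus and model 190424 in both. In 6 models in 4aplus and 9 in npq4 neither channel was above background on any array. Where 1 channel was above background, the early difference could be bounded, and of 23 bounds 9 gave no fold and the highest of the others was at least 1.17-fold.

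The early ratio, the mean of 24 and 48 h, was tested against 0 with limma, and a call needed a Holm adjusted p under 0.05, adjusted over all models, together with a 2-fold change. In 4aplus 0 of the 65 models were called, against 2.82% of all, and in npq4 0 were called, against 1.31% of all. The smallest Holm adjusted p of a member was 0.611 in 4aplus and 0.590 in npq4. With Benjamini-Hochberg adjustment 18 members were called in 4aplus (27.7%), against 31.5% of all models, and 7 in npq4 (10.8%), against 26.8%. An unadjusted p under 0.05 was reached by 25 members in 4aplus (38.5%, against 44.5% of all models) and 12 in npq4 (18.5%, against 39.6%). Such a test does not include how much 0 h cultures vary.

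In 4aplus 5 of these members were higher in starved RNA, against 10.5% of all models, and 13 were lower, against 21% of all. In npq4 2 were higher (9.88% of all) and 5 lower (16.9% of all). With this adjustment 43 of the 65 models were called in neither strain and 3, models 192833, 181390 and 94128, in both. Those are 66.2% and 4.62% of the members, against 56% and 14.2% of all models. These calls rested on the pair of early arrays. Without the 24 h array of 4aplus 4 members were called there (18.5% of all models), and 6 without its 48 h array (17.2% of all). In npq4 there were 4 without the 24 h array (11.7% of all) and 1, UAPA3, without the 48 h array (8.56% of all). After normexp and loess 2 of the 18 calls in 4aplus were kept, models 192833 and 187910, and model 141539 was added, against 10.4% of all models called. In npq4 2 of the 7 were kept, 192833 and UAPA3, against 12.4% of all.

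Among the members higher in 4aplus, model 192833 stood out by its level on every array. It read 2.02, 2.07, 2.02 and 2.41 in 4aplus and 1.18, 0.91 and 0.88 in npq4, so the raised ratio did not fade in either strain. The early ratio was 2.05 (limma SE 0.28, Benjamini-Hochberg adjusted p = 7.96e-04) in 4aplus and 1.05 (SE 0.28, adjusted p = 0.023) in npq4. In cc3491 it had been 1.39, 1.60, 0.47 and 0.19. The call in 4aplus held without either of its early arrays, the call in npq4 was lost without either of its own, and both calls held after normexp and loess.

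Model 187910, with 3 detected probes, read higher early than late in 4aplus too, but that difference was not called. It read 1.33, 1.23, 0.13 and 0.44 in cc3491 and 1.55, 1.40, 0.73 and 0.50 in 4aplus, where both late values, 0.734 and 0.5031, were above the late limit. In npq4 it read -0.86, -0.67 and 0.26. The early ratio in 4aplus was 1.47 (limma SE 0.27, Benjamini-Hochberg adjusted p = 0.004). Its early minus late difference there was 0.86 (limma SE 0.38, Benjamini-Hochberg adjusted p = 0.610).

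Models 176462, 189866 and 167200 had 1 detected probe each and were above background in red on both early arrays of 4aplus, as were all 5 members called higher there. Model 176462 read 2.02, 1.46, 0.99 and 0.25 in 4aplus, with an early ratio of 1.74 (limma SE 0.33, Benjamini-Hochberg adjusted p = 0.004). After normexp and loess it was 0.87 and the call was lost, as were those of models 189866 at 0.51 and 167200 at 0.47. Model 189866 read 1.65, 1.09, 1.01 and 0.05, and model 167200 read 1.84, 0.80, 0.24 and 0.67. In these models the ratio was higher at 24 h than at any later time in 4aplus. A ratio of 1 or more at both early times was reached by 4 members in 4aplus, which were 192833, 187910, 176462 and 189866, against 8.5% of all models. In npq4 it was reached by 0, against 8.58%.

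A ratio of -1 or less at both early times was met by 6 members in 4aplus, against 17.3% of all models, and by 6 in npq4, against 14.3%. Of the 13 members called lower in 4aplus, 9 were above background in red on neither early array. Model 20995 read -1.02, -2.37, -2.50 and -2.23 there, an early ratio of -1.70 (limma SE 0.38, Benjamini-Hochberg adjusted p = 0.009), but its red signal was not well above background, the difference could be bounded only as at least 1.13-fold, and after normexp and loess it was -0.17. None of the 13 was called after normexp and loess.

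In npq4 the lowest member was UAPA3, which read -2.52, -3.36 and -1.01 and was above background in both channels on all 3 arrays. Its early ratio was -2.94 (limma SE 0.39, Benjamini-Hochberg adjusted p = 0.001), while in 4aplus it read -0.48, 0.73, -0.50 and 0.34. The permease UAPA1 read -2.16, -2.28 and -2.45 in npq4 and from -4.85 to -2.86 in 4aplus. Models 181390 and 94128 had early ratios of -1.67 and -1.66 in npq4, with red not well above background, bounds of at least 1.17-fold and at least 1.06-fold, and values of -0.22 and -0.08 after normexp and loess. Model 98369 was called higher in npq4 at 1.48, from 0.55 at 24 h and 2.41 at 48 h, with red above background on 1 of the early arrays. After normexp and loess these read 0.26 and 0.12, and the call was lost.

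**Figure D5:**
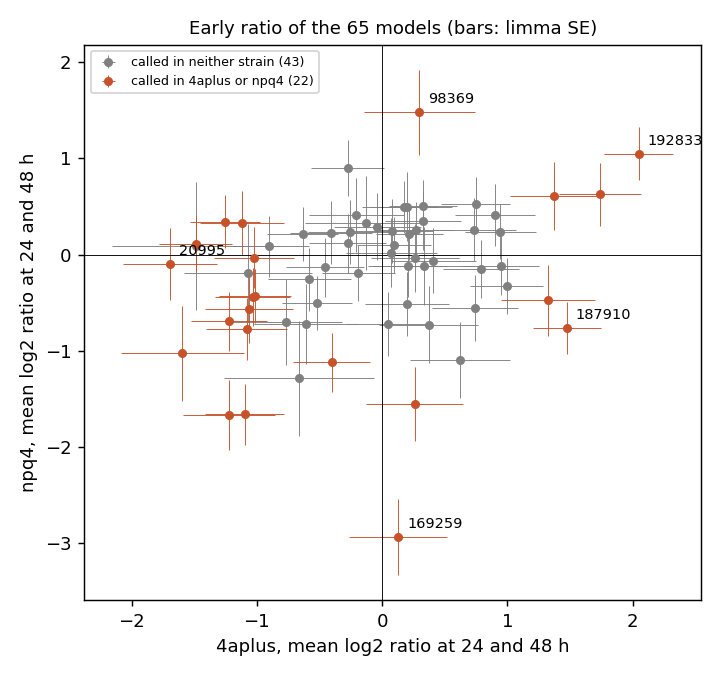
Mean log2 ratio at 24 and 48 h in 4aplus (x axis) and npq4 (y axis) for each of the 65 models, with limma standard errors as bars; orange points were called with Benjamini-Hochberg adjustment in 4aplus or npq4 (22) and grey points in neither (43). Model 192833 lies furthest right on the x axis at 2.05 and model 169259 (UAPA3) lowest on the y axis at -2.94.

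The time course itself was tested as early minus late. In 4aplus the difference was positive in 42 of 65 members (64.6%) and in 54.1% of all models, and ran from -2.02 to 1.12 with a median of 0.13, against 0.06 over all models. In npq4 it was positive in 25 (38.5%) and in 46.8% of all, and ran from -3.31 to 1.35 with a median of -0.23, against -0.05. Holm adjustment called 0 members in either strain, against 0% of all models in both. Benjamini-Hochberg adjustment called 0 members in either strain too, against 0% of all in 4aplus and 0.0179% in npq4. An unadjusted p under 0.05 was reached by 6 members in each (9.23%), against 8.24% of all models in 4aplus and 7.37% in npq4. npq4 had 1 late array, which was assumed to vary like the arrays of the other groups.

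Some members took the reverse course, at 0.5 or less early and 1 or more late. This was met by 3 members in 4aplus (4.62%), against 0.885% of all models, and by 7 in npq4 (10.8%), against 2.75%, counted after their values were seen. In 4 of the 7 neither channel was above background at 96 h, and in 2, models 102205 and 190995, both were. In 4aplus they were 145873, 190995 and the cysteine protease model 106870. Model 145873 read 0.44, 0.21, 1.47 and 1.63 in 4aplus and 0.56, 0.45 and 1.31 in npq4, with each of its 3 probes at 1.43 or more at 72 h in 4aplus. Model 190995 read -0.25, 0.44, 1.49 and 1.57 in 4aplus and -0.07, 0.26 and 1.18 in npq4. None of its 3 probes met the limits in cc3491, where probe 2 read 3.45, 2.64, 2.99 and 1.14 and probe 1 read -0.16, 0.36, -0.81 and -0.18. In 4aplus probe 2 read -0.76, 3.05, 3.29 and 3.00 and probe 1 read 0.20, -1.01, 1.10 and 1.39. Only 1 of its 3 probes was above background in red on any 4aplus array. Model 106870 read 0.14, 0.29, 1.30 and 1.47 in 4aplus and 0.08, 0.34 and 0.91 in npq4. In the means of these 3 models the late arrays were above the early ones in both strains, the opposite order to cc3491. Probe 2 of model 190995, however, was near its late level in 4aplus by 48 h.

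The early minus late difference was -1.22 (limma SE 0.38, Benjamini-Hochberg adjusted p = 0.447) for model 145873 in 4aplus and -1.43 (SE 0.42, adjusted p = 0.410) for model 190995. Model 177432 read -1.49, -1.48, 0.89 and 0.17 in 4aplus, with red above background on neither early array. Its early minus late difference was -2.02 (SE 0.41, adjusted p = 0.224). In npq4 it was -3.31 (SE 0.57, adjusted p = 0.168) for model 96016, which read 0.40, 0.06 and 3.54, with red above background at 96 h alone and green on no array. Model 154787 read -0.92, -2.20 and 1.67 in npq4, with red above background on none of its arrays. Green was not above background at 96 h either, so the late value compares 2 signals not above background. Its difference was -3.23 and was not called. For UAPA3 in npq4 the difference was -1.93 (SE 0.68, adjusted p = 0.531).

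The strains npq4 and 4aplus were compared over the early arrays. Holm adjustment called 0 of the 65 members, against 0.402% of all models, and the median difference of npq4 minus 4aplus was 5.38e-04 against 0.10 over all. Benjamini-Hochberg adjustment called 4 members, against 11.1% of all models, 2 of them higher in npq4 (6.33% of all) and 2 lower (4.78% of all). UAPA3 was lower in npq4 by a difference of -3.07 (limma SE 0.56, Benjamini-Hochberg adjusted p = 0.012) and model 187910 by -2.24 (SE 0.38, adjusted p = 0.009). Both were also called after normexp and loess. Models 169476 and 177432 were higher in npq4 by 1.60 each, with adjusted p of 0.037 and 0.043, but neither was above background in red on an early array of 4aplus, so these sizes are not measured on both sides. After normexp and loess they were 0.14 and 0.49, neither was called, and 102205 and 172560 were called in their place. The share of all models called was then 7.31%. The calls for npq4 minus 4aplus rested on the 2 early arrays of each strain. With any of these left out a single early array remained in that strain. The calls were not stable to this, over the members or over all models. Model 154787, at -1.82 (SE 0.55, adjusted p = 0.067), was not called. With the time point as a replicate block, Benjamini-Hochberg adjustment called 8 members, these 4 and models 154787, 167200, 171176 and 181202, against 16.1% of all models. An unadjusted p under 0.05 was reached by 15 members (23.1%), against 28.9% of all models.

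The arrays labelled cc125 ran against the others, with a Pearson correlation of mean ratios of -0.45 with cc3491 over the 11183 models, so their direction is not settled. As labelled the member medians were -0.15, -0.31, -0.13 and -0.17. The limits were met by 0 of 65 as labelled, against 0.25% of all models, and by 0 with the sign turned, against 0.197%.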

How the data were processed

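Scanner files of 15 arrays hold, per the file headers, the intensity of each of 45218 spots in both channels and marks for outliers, saturation and signal above background, and the authors made them with Agilent Feature Extraction 10.7.3.1. The processed intensity deposited there had background subtracted and dyes normalized. The deposited series values were the same log10 ratios of red over green, with a largest difference of 0. Probes were designed on JGI gene models and numbered 43687 for 14557 models, of which 23433 were detected in cc3491. The log2 ratio computed from the deposited processed intensity was centred on the median of non-control spots, and outlier-marked spots were kept.

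limma 3.58.1 in R 4.3.3 was fitted to the 7 arrays of 4aplus and npq4 with 1 coefficient for each strain and period, over 11183 models, leaving 3 residual degrees of freedom and adding 5.39 from the prior. P-values measure the spread between time points. Holm adjustment and the 2-fold limit follow the study's methods. The fit was tested on simulated data. Bounds used channel levels after normexp (offset 50), loess and Aquantile, which are open to dye bias because dyes were not exchanged, and the dim channel was taken at its measured level, or at the lowest level called above background where that was greater. The number of arrays limits the precision.

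The members and the gene lists were chosen with earlier results of these data known. Models named were the 12 with the highest early ratio among those with more than 1 detected probe, those with a symbol or product, in each test the called members that changed most (up to 5 higher and 5 lower) or, with none called, the 3 with the largest change in the same direction on every array, those that were transient in 4aplus or npq4 (0), and the 3 on each side of each limit. Others, such as the highest single-probe models, were named after their values were seen. Alternatives were other limits, normexp with loess, other detection rules, all 15 arrays, the median over probes, another adjustment, time as a block and each array left out. Symbols came from the study's tables, and RefSeq v5.5 gave gene order only.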

Additional observations from a re-analysis of the deposited data

Results flagged for a closer look

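Within the 4 arrays of 4aplus and of cc125, 9 of 130 sets of member values had 1 array far from the rest, and chance gives about 1 in 20 such sets. In 4aplus these were model 79435 at 96 h with 1.18, model 181202 at 96 h with 1.71, model 192833 at 96 h with 2.41, model 115707 at 24 h with 0.34 and model 148006 at 72 h with -1.13. On the arrays labelled cc125 they were model 181451 at 96 h with -1.36, model 186131 at 48 h with 1.73, model 189866 at 48 h with -0.66 and model 193569 at 96 h with -0.75. The arrays are different time points and the cause was not tested. Model 181202 read -1.23, -1.74 and -1.58 on the earlier 4aplus arrays, so its 96 h value has the opposite sign.

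The early ratio differed between npq4 and 4aplus with Benjamini-Hochberg adjustment for model 169259 (UAPA3) by -3.07, model 187910 by -2.24, model 177432 by 1.60 and model 169476 by 1.60, while none passed Holm adjustment. These are 6.15% of the members, against 11.1% of all models called, so calls were not more frequent in the set. For models 177432 and 169476 red was above background on no early array of 4aplus, and after normexp and loess their differences were 0.49 and 0.14 and were not called.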

How the results depend on the processing

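The number of members depended on the processing. Limits of 1.2 and 0.3 gave 23 models and limits of 0.8 and 0.7 gave 181, as follows from stricter and looser limits. After normexp and loess 15 models met the limits, 14 of them among the 65, and the member medians in cc3491 were then 0.92, 0.84, 0.06 and -0.07, and the cause was not tested. Detection in both channels gave 60 models, 53 shared, and 65 of 65 remained without outlier-marked spots. Benjamini-Hochberg adjustment moved the count of members called from 0 to 18 for the early ratio in 4aplus, 7 in npq4 and 4 for npq4 minus 4aplus. Of all models it called 31.5%, 26.8% and 11.1%. After normexp and loess the member counts were 3, 2 and 4, of which 2, 2 and 2 were among the former. The shares of all models were then 10.4%, 12.4% and 7.31%. Under Holm adjustment 0 members were called in any of the 5 tests under any alternative. In the main setting it called 2.82% of all models for the early ratio in 4aplus, 1.31% in npq4 and 0.402% for npq4 minus 4aplus. For early minus late in 4aplus it called 0% of all. With shares this low, counts of 0 are not a result about the members. Early minus late in npq4 could not be given without its 96 h array. The transient course was met by 0 members in 4aplus and npq4 also after normexp and loess and with probes detected on every array of the strain, the alternatives run for it. In the main setting only 0.188% of all models met it in 4aplus and 0.805% in npq4, so these counts too are not a result about the members. The median early ratio of the members, 0.05 in 4aplus and -0.06 in npq4, changed sign under some settings, to as low as -0.19 with the median over probes in 4aplus and to 0.13 without centring in npq4. With time as a replicate block 0 members were called by Holm adjustment for npq4 minus 4aplus, and over all models 72 instead of 45. Benjamini-Hochberg adjustment then called 8 members instead of 4, against 16.1% instead of 11.1% of all models. Samples of the same hour share a time point and not a batch, and their deviations had a correlation of 0.05 over models. Over all models Holm adjustment called 315 in 4aplus and 146 in npq4, 114 in 4aplus after normexp and loess, and as few as 21 in 4aplus, 1 in npq4 and 2 for npq4 minus 4aplus with 1 array left out. Weak signal in 4aplus and npq4 limits what can be said of members not above background there. Settings with outlier-marked spots left out of the tests, without centring, with control spots in the median, and with Benjamini-Hochberg adjustment under each alternative were chosen after seeing the data.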
